A study of Bos taurus with 138 samples.

Results

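The anaphase promoting complex and the proteins that switch it on and off were followed through 10 genes, CDC20, FZR1, FBXO43, FBXO5, PTTG1, ANAPC1, ANAPC4, ANAPC10, ANAPC11 and CDC27, out of 16706 gene symbols in the count table. They were taken by name, as a list of the complex's co-activators, inhibitors, securin and some of its core subunits. Their measured values were not the rule, though earlier results of these data were known. All 10 were in the table, and all 10 passed the filter on low counts.

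The anaphase promoting complex is a ubiquitin ligase that sends securin and cyclin B to the proteasome, which frees separase to cut cohesin and lets the cell leave metaphase. CDC20 and FZR1 (also called CDH1) are co-activators that bring substrates to it, whereas FBXO5 (EMI1) and FBXO43 (EMI2) are inhibitors. In the oocyte, FZR1 is known for its part in prophase arrest at the germinal vesicle (GV) stage, and FBXO43 for holding the mature egg in metaphase II (MII) until a sperm enters.

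Bovine (Bos taurus) oocytes came from slaughterhouse ovaries. GV oocytes were taken before maturation, MII oocytes after in vitro maturation and removal of the cumulus cells, and embryos at the 2-cell, 8-cell, morula and blastocyst stages after in vitro fertilisation with semen of 1 Holstein bull and in vitro culture. Cycloheximide was added to the culture before oocytes and embryos were collected, and also to the lysis buffer and the gradients. At each of the 6 stages, lysates of pooled oocytes or embryos were run on 2 sucrose gradients (A and B). From each gradient 10 fractions were taken, numbered F1 (lightest) to F10 (heaviest). Pools of whole oocytes or embryos of the same batch gave 3 transcriptome libraries (A, B and C) per stage. F1 and F2 hold mostly free RNA, F3 to F5 mostly subunits and single ribosomes, and F8 to F10 polysomes, which are mRNAs with several ribosomes on them. Each pool mixes many oocytes or embryos, and semen of 1 bull was used for the embryos.

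Totals ranged from 1229382 to 17342859 counts in the 120 fraction libraries and from 3269386 to 11812567 in the 18 transcriptomes. The 6 oocyte markers summed to between 11013 and 23582 CPM (counts relative to the size of the library) in GV, MII and 2-cell transcriptomes and to at most 744 in transcriptomes from the 8-cell stage on. In the 8-cell fractions they summed to between 601 and 6465 CPM. Of the 6 blastocyst markers, 5 were measured, and they summed to between 4882 and 5240 CPM at blastocyst and to at most 341 in all earlier transcriptomes. The 10 cumulus and granulosa cell markers summed to between 1503 and 9401 CPM in the 8-cell transcriptomes, against at most 758 at any other stage. LUM alone gave between 1305 and 9056 CPM of that sum. Without LUM the sums were between 157 and 345 CPM at 8-cell, below those of GV, MII and 2-cell transcriptomes (between 377 and 758). From 2-cell to 8-cell, mean CPM rose from 0.0892 to 97.3 for CYP11A1, 0.178 to 33.4 for TNFAIP6, 2.61 to 16.3 for PTX3 and 0.0305 to 4.47 for FSHR. At morula these stood at 0.362, 2.35, 0 and 0.0322. AMH and FOXL2 rose from 0 to 0.709 and 0.338 CPM, with FOXL2 at 0.63 CPM or less. STAR fell from 296 to 51.8 CPM, HAS2 from 120 to 27.8 and CYP19A1 from 2.39 to 1.25. According to the methods, the zona pellucida was removed and the samples were checked for other cells. Among the blastocyst transcriptomes, library A held 107 CPM of oocyte markers, whereas B and C held 29.2 and 33.5.

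Levels are given in CPM scaled by the trimmed mean of M-values (TMM), with transcriptome libraries in the order A, B, C and polysome pools (the summed counts of F8, F9 and F10 of a gradient) in the order A, B. These values are shares of the RNA in a library, so fewer cells of a type and less RNA per cell cannot be told apart, and a gene can take a larger share without more copies. Levels of different genes were not compared, since no transcript lengths were used. A gene was called changed where the Benjamini-Hochberg adjusted p of edgeR's quasi-likelihood test was under 0.05, and differences are log2 fold changes with their standard error (SE).

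Between consecutive stages, 17 of the 50 transcriptome comparisons of members were called, 5 upward and 12 downward, beside 24.6% of the comparisons of all genes (12% upward and 12.5% downward). From GV to MII, FBXO5, ANAPC1, ANAPC11 and CDC27 rose and FZR1 fell (5 of 10 members, beside 18.6% of all genes). From the 2-cell to the 8-cell stage, FBXO43, FBXO5, PTTG1, ANAPC1 and ANAPC11 fell (5 of 10, beside 52.3%). From morula to blastocyst, CDC20, FBXO5, ANAPC1 and CDC27 fell (4 of 10, beside 23.2%). The remaining steps held 2 calls from MII to 2-cell (beside 13.1%) and 1 from 8-cell to morula (beside 15.4%). With the spread estimated in the 18 transcriptomes alone, 33 of the 50 were called, 10 upward and 23 downward, beside 51.3% of all genes. The called steps were then 7 up and 2 down from GV to MII (47.4% of genes), 1 up and 6 down from MII to 2-cell (36.4%), 8 down from 2-cell to 8-cell (75.6%), 2 up and 2 down from 8-cell to morula (44.8%) and 5 down from morula to blastocyst (52.4%).

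**Figure D1:**
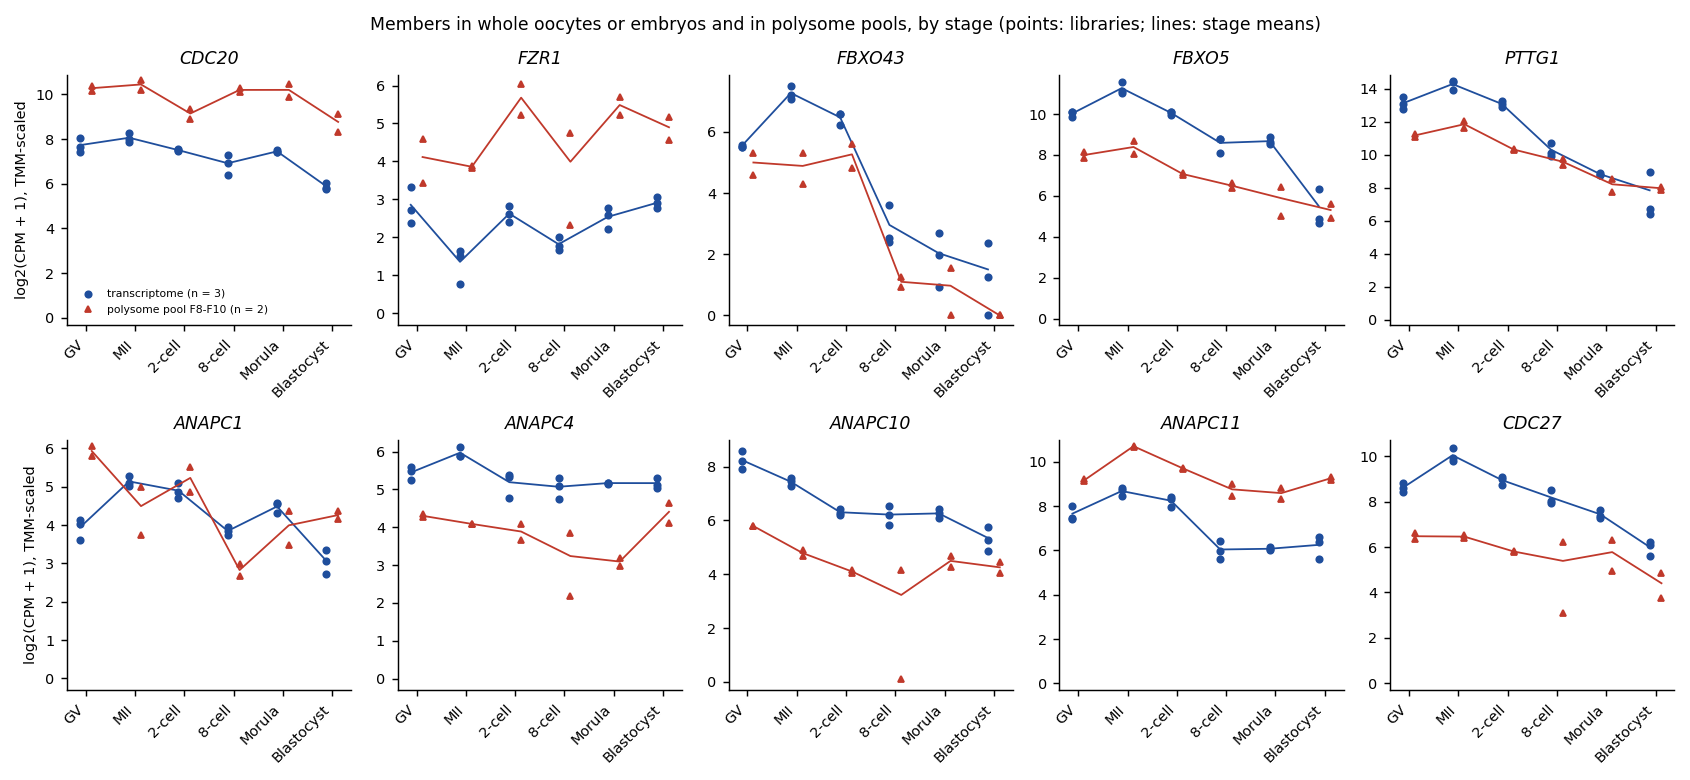
Level of each member, as log2(CPM + 1) with TMM scaling, against stage from GV oocyte to blastocyst. Blue circles are the 3 transcriptomes and red triangles the 2 polysome pools of a stage, with lines through the stage means. CDC20, FZR1 and ANAPC11 lie higher in polysome pools than in transcriptomes, CDC27 and ANAPC10 lower, and FBXO43 drops between the 2-cell and 8-cell stages in both.

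CDC20, the co-activator of metaphase, was lowest in blastocysts. It stood at 263, 171 and 198 CPM at GV, 234, 257 and 306 at MII and 179, 174 and 188 at 2-cell. It then stood at 82.5, 121 and 156 CPM at 8-cell, 181, 171 and 168 at morula and 55.9, 65.1 and 53.4 at blastocyst. The blastocyst values lay below all others without overlap, whereas MII, GV, 2-cell and morula overlapped in that order of their means. Only the last step was called for CDC20, a fall of 2.99-fold from morula to blastocyst (log2 -1.58, SE 0.26, adjusted p = 8.07e-05), and it was called without each library in turn.

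FZR1, the co-activator of prophase arrest and of the exit from mitosis, was low in every transcriptome. Its levels of 8.96, 4.2 and 5.58 CPM at GV went to 1.83, 2.13 and 0.714 at MII, its lowest stage, and to 5.1, 4.32 and 6.09 at 2-cell. The MII values rest on 16, 21 and 6 counts. They lay below all GV and all 2-cell values. The fall from GV to MII was called (3.99-fold, SE 0.58 on the log2 scale, adjusted p = 0.0156), though not without GV transcriptome A or MII transcriptome C (adjusted p up to 0.0969). The rise to the 2-cell stage (log2 1.72, SE 0.57, adjusted p = 0.0475) was lost without any one of 24 of the 30 libraries (adjusted p up to 0.226), with the replicate block (0.0524) and with DESeq2 size factors (0.0562).

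FBXO43, the inhibitor that holds metaphase II, was highest at MII and fell between the 2-cell and 8-cell stages. It measured 44.3, 47.1 and 44.9 CPM at GV, 147, 134 and 180 at MII and 95.3, 94.1 and 74.8 at 2-cell, and these 3 stages did not overlap. It then measured 4.28, 4.75 and 11.3 CPM at 8-cell, 5.51, 0.894 and 2.91 at morula and 4.12, 0 and 1.4 at blastocyst, which overlapped with each other. The fall from 2-cell to 8-cell was large beside its spread (log2 -3.70, SE 0.87, adjusted p = 0.00115) and was called without each library. The higher level at MII than at GV (log2 1.76, SE 0.80, adjusted p = 0.137) was not called in the model of 30 libraries and was called in the transcriptomes alone (adjusted p = 0.00134).

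FBXO5, the inhibitor of interphase and early mitosis, fell at the 8-cell stage and again at the blastocyst. It was at 936, 1097 and 1108 CPM at GV, 2089, 2229 and 3081 at MII and 1115, 994 and 1093 at 2-cell, and then at 270, 442 and 442 at 8-cell and 368, 394 and 463 at morula. In blastocysts it was at 79.4, 24.5 and 28.4 CPM, below all other stages. The falls from 2-cell to 8-cell (log2 -1.47, SE 0.37, adjusted p = 0.00189) and from morula to blastocyst (log2 -3.22, SE 0.40, adjusted p = 2.92e-06) were called without each library. The rise from GV to MII (log2 1.24, SE 0.37, adjusted p = 0.0182) was lost without GV transcriptome A or C or MII transcriptome C (adjusted p up to 0.0917), and the fall from MII to 2-cell (log2 -1.21, SE 0.37, adjusted p = 0.0281) was lost without MII transcriptome C or any 2-cell transcriptome (adjusted p up to 0.122), with library totals in place of TMM (0.265) and with no filter on low counts (0.0569).

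PTTG1, the securin that blocks separase until the complex marks it for destruction, was highest at MII and fell at 2 later steps. It stood at 6924, 11515 and 8496 CPM at GV, 22617, 15672 and 21842 at MII and 8542, 7577 and 9929 at 2-cell. It then fell to 986, 1709 and 1094 CPM at 8-cell (log2 -2.78, SE 0.45, adjusted p = 1.79e-05) and to 439, 475 and 440 at morula (log2 -1.48, SE 0.43, adjusted p = 0.0197). The first of these falls was called without each library, and the second was lost without 8-cell transcriptome B or any morula transcriptome (adjusted p up to 0.0938). The blastocyst libraries stood apart from each other, at 500 CPM in A and 84.4 and 102 in B and C, where A is also the library with the most oocyte marker RNA. The step from morula to blastocyst was not called for PTTG1 with A (log2 -0.98, SE 0.43, adjusted p = 0.0996) and was called without it (log2 -2.28, adjusted p = 1.82e-05). The part of that marker RNA in the level of PTTG1 was not tested.

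The core subunits did not share 1 course. ANAPC1, the large scaffold, was at 16.6, 15.3 and 11.2 CPM at GV and 38.1, 31.4 and 33.2 at MII (log2 1.26, SE 0.37, adjusted p = 0.019), a rise lost without GV transcriptome C or MII transcriptome A (adjusted p up to 0.0968). It was at 33.2, 28.2 and 25 CPM at 2-cell, 12.4, 14.4 and 13.3 at 8-cell (log2 -1.11, SE 0.37, adjusted p = 0.016), 18.8, 22.5 and 22.9 at morula and 7.35, 5.6 and 9.2 at blastocyst (log2 -1.53, SE 0.38, adjusted p = 0.00479). The fall to the 8-cell stage was lost without 2-cell transcriptome A (adjusted p = 0.0574), and that to the blastocyst was called without each library.

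ANAPC11, the RING subunit that carries the ligase activity, was highest at MII and dropped at the 8-cell stage. It went from 176, 257 and 172 CPM at GV to 426, 356 and 449 at MII (log2 1.03, SE 0.26, adjusted p = 0.00598), and from 314, 252 and 342 at 2-cell to 85, 48.1 and 61.7 at 8-cell (log2 -2.22, SE 0.27, adjusted p = 3.14e-07). Neither pair of stages overlapped, and both calls held without each library. It stayed at 69.5, 64.7 and 65.1 CPM at morula and 97, 47.5 and 81.2 at blastocyst, which overlapped.

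CDC27, a scaffold subunit to which co-activators dock, was at 347, 453 and 384 CPM at GV and 876, 979 and 1318 at MII (log2 1.42, SE 0.47, adjusted p = 0.0356). It was at 514, 550 and 424 CPM at 2-cell, 259, 365 and 249 at 8-cell, 154, 166 and 199 at morula and 47.6, 73.4 and 68.2 at blastocyst (log2 -1.45, SE 0.48, adjusted p = 0.0283 for the last step). The MII values lay above and the blastocyst values below those of every other stage. Each of these calls was lost without any of 5 of the 6 transcriptomes of its stages, the exceptions being MII A and morula A (adjusted p up to 0.132 and 0.108).

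ANAPC4 and ANAPC10 had no called step in the transcriptomes. ANAPC4, a subunit of the platform, had stage means within 1.89-fold of each other, from 32.6 CPM at 8-cell to 61.8 at MII. ANAPC10, which helps to hold substrates, had its highest values of 239, 380 and 293 CPM at GV, followed without overlap by 191, 153 and 174 at MII and 85.4, 76.5 and 72.4 at 2-cell. Its SEs in the model of 30 libraries were 0.65 at the smallest, and in the transcriptomes alone its falls from GV to MII (log2 -0.82, adjusted p = 0.00507), from MII to 2-cell (log2 -1.16, adjusted p = 0.000409) and from morula to blastocyst (log2 -0.90, adjusted p = 0.00277) were called. The 8-cell polysome pools of ANAPC10, at 2 and 616 counts, are part of the spread that the model of 30 libraries shares over all groups.

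The rises from GV to MII depended on the scaling. With library totals in place of TMM factors, the median of all genes moved by -0.41 on the log2 scale for this step, and the calls of FBXO5, ANAPC1, ANAPC11 and CDC27 were lost (adjusted p = 0.16, 0.12, 0.102 and 0.131), without a change of direction. With no filter on low counts, those of ANAPC1 and CDC27 were lost (0.0518 and 0.0595).

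Polysome pools were then set against the transcriptome of the same stage. This asks whether an mRNA takes a larger share of the mRNA captured from polysomes or of that from whole oocytes or embryos. CDC20 and ANAPC11 were higher in polysomes at all 6 stages and FZR1 at 5, whereas CDC27 was lower at all 6, FBXO5 and ANAPC4 at 5, ANAPC10 at 4 and FBXO43 and PTTG1 at 3. In all, 46 of the 60 comparisons were called, 19 higher and 27 lower, beside 49.9% of those of all genes (26.1% higher and 23.8% lower). By stage, 8 members were called at GV (beside 39.8% of genes), 9 at MII (57.5%), 8 at 2-cell (51%), 9 at 8-cell (59.1%), 6 at morula (51.7%) and 6 at blastocyst (40.1%). The members' median log2 difference lay below that of all genes at the first 5 stages, between -0.87 at GV and -2.18 at MII, where the medians of all genes lay between -0.26 and 0.18, and at the blastocyst it was -0.03 beside -0.08.

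**Figure D2:**
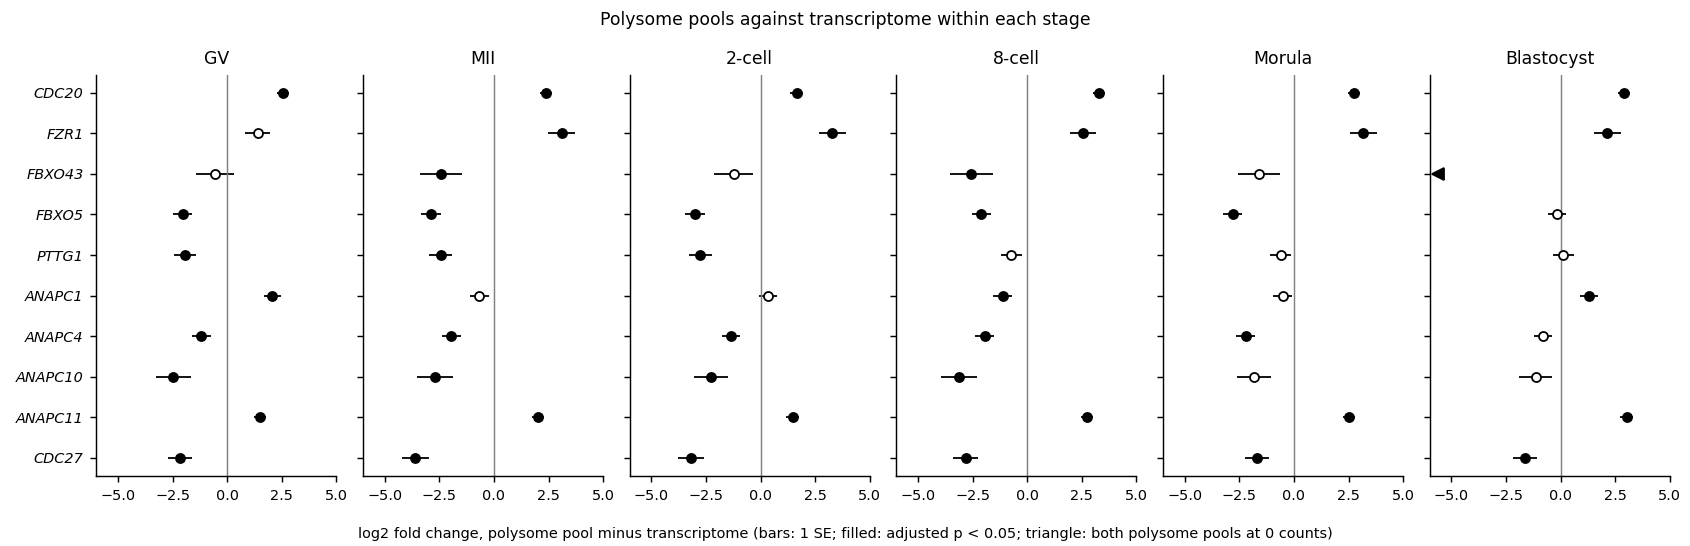
Log2 fold change of each member between polysome pools (n = 2) and transcriptomes (n = 3), with 1 panel per stage; bars are 1 SE, and filled points have an adjusted p under 0.05. CDC20 and ANAPC11 lie to the right of 0 and CDC27 to the left at all 6 stages; the triangle marks FBXO43 at blastocyst, where both pools held 0 counts.

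CDC20 was between 3.12-fold (2-cell) and 9.78-fold (8-cell) higher in polysome pools than in transcriptomes. Its pools held 1145 and 1327 CPM at GV, 1595 and 1182 at MII, 650 and 476 at 2-cell, 1094 and 1250 at 8-cell, 939 and 1406 at morula and 553 and 316 at blastocyst. Every pool lay above every transcriptome of its stage, with log2 differences between 1.64 (SE 0.28, adjusted p = 2.67e-05) and 3.29 (SE 0.29, adjusted p = 1.98e-09). The calls held without each library.

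FZR1, low in whole oocytes and embryos, was at 13.2 and 13.8 CPM in MII pools (log2 3.11, SE 0.62, adjusted p = 0.000174), 36.3 and 64.2 in 2-cell pools (3.28, SE 0.61, adjusted p = 9.15e-05) and 50.9 and 36.7 in morula pools (3.18, SE 0.61, adjusted p = 0.000146). These pools lay above all transcriptomes of their stage. At GV the pools held 9.79 and 22.9 CPM and the difference was not called (1.38, SE 0.59, adjusted p = 0.065). The 8-cell pools disagreed, at 25.8 and 3.99 CPM (2.55, SE 0.61, adjusted p = 0.00101), and that call was lost without pool A (adjusted p = 0.347) or with F9 and F10 alone as polysomes (0.149). The blastocyst pools, at 35 and 22.7 CPM (2.15, SE 0.60, adjusted p = 0.0065), lost it without pool A too (adjusted p = 0.0601).

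FBXO5 took a smaller share of polysome pools than of transcriptomes from GV to morula. Its pools held 282 and 227 CPM at GV, 262 and 407 at MII, 138 and 128 at 2-cell, 81.2 and 97.2 at 8-cell and 30.8 and 85.3 at morula, each below every transcriptome of its stage. The log2 differences lay between -2.04 (SE 0.44, adjusted p = 0.000579) at GV and -3.00 (SE 0.46, adjusted p = 7.39e-06) at 2-cell and held without each library. In blastocysts the pools, at 29.3 and 47.9 CPM, fell within the transcriptome values (-0.18, SE 0.41, adjusted p = 0.755). Both pools lay above transcriptomes B and C (24.5 and 28.4 CPM) and below A (79.4), and without A the difference was 0.54 (adjusted p = 0.254, not called).

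FBXO43 was lower in the polysome pools of MII oocytes, at 38.8 and 18.5 CPM (log2 -2.42, SE 0.95, adjusted p = 0.0335), and of 8-cell embryos, at 1.39 and 0.895 (-2.57, SE 0.99, adjusted p = 0.0298). The MII call was lost without either pool or transcriptome A or C (adjusted p up to 0.187) and the 8-cell call without either pool or transcriptome C (adjusted p up to 0.109). In GV oocytes (38.8 and 23.2 CPM) and 2-cell embryos (48 and 27.1 CPM) the differences of -0.55 (SE 0.88, adjusted p = 0.658) and -1.23 (SE 0.90, adjusted p = 0.261) were not called. Both blastocyst pools held 0 counts, beside transcriptomes at 4.12, 0 and 1.4 CPM. This was called lower (adjusted p = 0.00216, and 0.0177 without transcriptome A), though the groups overlapped, and no fold is given. With F9 and F10 alone as polysomes, the MII call of FBXO43 was lost (adjusted p = 0.114).

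PTTG1 was called lower in polysomes at the first 3 stages, at 2201 and 2428 CPM in GV pools (log2 -1.96, SE 0.51, adjusted p = 0.00332), 4232 and 3180 in MII pools (-2.44, SE 0.52, adjusted p = 0.000329) and 1280 and 1276 in 2-cell pools (-2.76, SE 0.53, adjusted p = 0.00012). At each of these stages the pools lay below every transcriptome. They held 854 and 671 CPM at the 8-cell stage (-0.73, SE 0.48, adjusted p = 0.193), 376 and 215 at morula (-0.61, SE 0.48, adjusted p = 0.29) and 269 and 231 at blastocyst (0.13, SE 0.47, adjusted p = 0.863). Without blastocyst transcriptome A, the blastocyst difference was 1.42 and was called (adjusted p = 0.00109), with PTTG1 then higher in polysomes.

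Among the 5 core subunits of the member list, ANAPC11 was the one called higher in polysomes at every stage. Its pools held 595 and 555 CPM at GV, 1633 and 1707 at MII, 855 and 816 at 2-cell, 519 and 346 at 8-cell, 451 and 316 at morula and 638 and 585 at blastocyst, each above every transcriptome of its stage. The log2 differences ran from 1.46 (SE 0.28, adjusted p = 0.000136) at 2-cell to 3.02 (SE 0.29, adjusted p = 2.96e-08) at blastocyst, and held without each library.

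CDC27 went the other way at every stage. Its pools held 96.5 and 79.9 CPM at GV, 83.2 and 91 at MII, 55.7 and 54.3 at 2-cell, 7.55 and 74.3 at 8-cell, 78.2 and 29.5 at morula and 12.6 and 27.7 at blastocyst, below all transcriptomes of the stage. The log2 differences ran from -3.60 (SE 0.61, adjusted p = 2.14e-05) at MII to -1.65 (SE 0.55, adjusted p = 0.0207) at blastocyst. The GV call was lost without pool B (adjusted p = 0.0509), the morula call without pool B (adjusted p = 0.153) or with F9 and F10 alone (0.0655) and the blastocyst call without pool A or transcriptome B (adjusted p up to 0.192).

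ANAPC4 and ANAPC10 were also lower in polysomes. ANAPC4 held between 6.94 and 24 CPM in pools, except for 3.53 in 8-cell pool A, and was called lower from GV to morula, with log2 differences from -1.19 (SE 0.42, adjusted p = 0.0269) at GV to -2.21 (SE 0.44, adjusted p = 0.00022) at morula. Its GV call was lost without either pool or transcriptome A or C (adjusted p up to 0.138) and its 2-cell call without pool A (adjusted p = 0.0966), and with F9 and F10 alone the ANAPC4 calls at GV, MII and 2-cell were lost (adjusted p = 0.214, 0.0531 and 0.246). ANAPC10 was called lower from GV to 8-cell, with log2 differences between -2.27 (SE 0.79, adjusted p = 0.0198) at 2-cell and -3.12 (SE 0.83, adjusted p = 0.00268) at 8-cell, where its pools held 0.082 and 16.7 CPM. The GV and 2-cell calls of ANAPC10 were lost without either of their pools and the MII call without pool A (adjusted p up to 0.104).

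ANAPC1 was called higher at some stages and lower at another. Its pools held 54.8 and 65.5 CPM at GV, above the transcriptomes (log2 2.07, SE 0.41, adjusted p = 0.000254, called without each library), and 5.33 and 6.86 at 8-cell, below them (-1.13, SE 0.43, adjusted p = 0.0265). In blastocysts they held 16.8 and 19.6 CPM, above again (1.30, SE 0.41, adjusted p = 0.015). The 8-cell call was lost without pool A or transcriptome B (adjusted p up to 0.119) and the blastocyst call without pool B or transcriptome B (adjusted p up to 0.0792). With F9 and F10 alone as polysomes, the ANAPC1 calls at GV, 8-cell and blastocyst were lost (adjusted p = 0.0953, 0.168 and 0.168), as was that at 8-cell with no filter on low counts (0.0553) and that at blastocyst with library totals in place of TMM (0.0634).

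The lighter parts of the gradient were set against the transcriptome in the same way. With fractions and transcriptomes on 1 TMM scale, CDC20 exceeded all 3 transcriptomes of its stage in 115 of the 120 fraction libraries, ANAPC11 in 113 and FZR1 in 97, whereas CDC27 lay below all 3 in 119, ANAPC10 in 118, ANAPC4 in 116, FBXO5 in 110, PTTG1 in 97 and FBXO43 in 87. ANAPC1 was divided, above all 3 in 42 and below all 3 in 66. Such counts were not made for all genes, so they do not show whether the members differ from other genes. With F1 and F2, the free RNA, in place of F8 to F10, 41 of 60 member comparisons were called, 14 higher and 27 lower (49% of all genes, from 25.3% at blastocyst over 54.6% at GV to 64.2% at 8-cell). With F3 to F5 there were 15 higher and 28 lower (55.7%), and with F6 and F7 18 higher and 30 lower (51.4%).

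In F1 and F2, ANAPC11 was called higher at all 6 stages and CDC20 and FZR1 at 4. CDC27 and ANAPC10 were called lower at all 6, FBXO5 and ANAPC4 at 5 and PTTG1 at 3. For these members, calls in the same direction were thus found in free RNA as well as in polysomes. ANAPC1 differed by part: at blastocyst it was called in F8 to F10 alone among the 4 parts (log2 0.82, 0.21 and 0.06 in F1 and F2, F3 to F5 and F6 and F7), and at GV it stood at 0.14 in F1 and F2 (adjusted p = 0.894). Among comparisons called in F8 to F10, the direction turned, without a call, for ANAPC1 at 8-cell in F3 to F5 (1.18, adjusted p = 0.0609), FZR1 at blastocyst in F3 to F5 (-0.53, adjusted p = 0.56) and FBXO43 in F1 and F2 at 8-cell (1.52, adjusted p = 0.231) and blastocyst (1.62, adjusted p = 0.347). Fractions and transcriptomes differ in the lysate, the gradient and the number of oocytes or embryos behind a library as well as in ribosomes, and these cannot be told apart in that comparison.

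**Figure D3:**
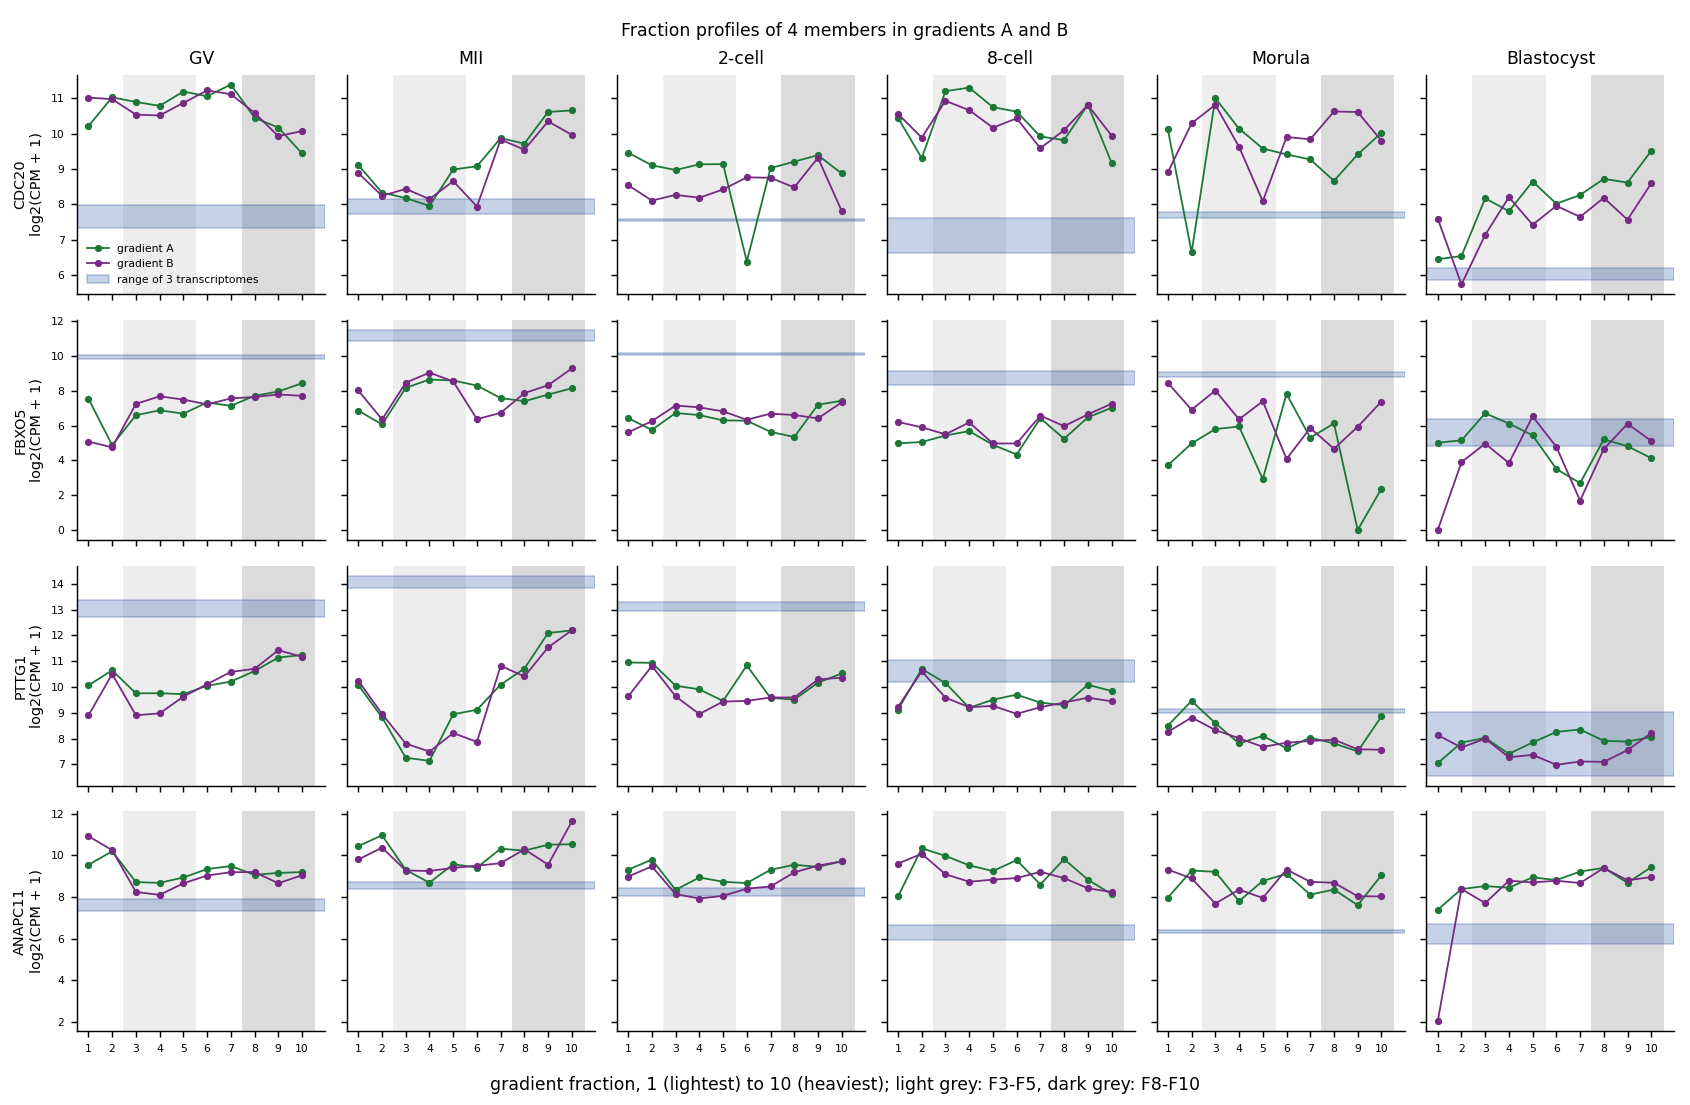
Level of CDC20, FBXO5, PTTG1 and ANAPC11, as log2(CPM + 1), in fractions 1 to 10 of gradient A (green) and B (purple) at each stage, with the range of the 3 transcriptomes as a blue band. CDC20 and ANAPC11 lie above the band and FBXO5 and PTTG1 below it in most fractions up to the morula, and PTTG1 climbs toward F10 at MII.

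Heavy fractions (F8 to F10) were therefore also set against light ones (F3 to F5) of the same gradient, a comparison within a lysate. Here 2 of 60 member comparisons were called, both higher in heavy fractions, beside 1.99% of those of all genes (0.923% higher and 1.07% lower). By stage, 0.269% of all genes were called at GV, 0.202% at MII, 8.74% at 8-cell, 1.41% at morula and 1.31% at blastocyst. PTTG1 at MII was 12.7-fold higher in heavy pools, with 3734 and 2866 CPM against 260 and 256 in light pools (log2 3.66, SE 0.31, adjusted p = 0.00388). The MII fractions of PTTG1 rose from 140 and 180 CPM in F4 to 4672 and 4692 in F10. With either MII gradient left out the call was lost (adjusted p up to 0.408).

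ANAPC1 at morula was the other call, with 411 and 350 counts in heavy pools and 0 and 7 in light pools (adjusted p = 0.0394). The fitted log2 value of 6.61 (SE 1.27) depends on the small number added to empty pools and is no bound. That call was lost without any one of 7 of the 12 gradients, the morula gradient A among them (adjusted p up to 0.106).

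CDC20, PTTG1 and ANAPC11 were looked at in the same way in oocytes. In MII oocytes CDC20 stood at 1407 and 1066 CPM in heavy pools and 352 and 378 in light pools (log2 1.75, SE 0.37, adjusted p = 0.102, not called), and Spearman's rho over the 16 fraction libraries F3 to F10 was 0.86. In GV oocytes its values pointed the other way, at 1057 and 1221 CPM in heavy and 2093 and 1668 in light pools (-0.72, SE 0.36, adjusted p = 0.636, rho -0.52). PTTG1 already pointed to heavy fractions at GV, at 2031 and 2233 CPM against 901 and 609 (1.52, SE 0.29, adjusted p = 0.0629, rho 0.94). ANAPC11 did so at MII, at 1440 and 1539 CPM against 607 and 697 (1.19, SE 0.30, adjusted p = 0.16, rho 0.89). None of these differences was called; the heavy pools lay above the light ones in both gradients in each case but that of CDC20 at GV, where they lay below.

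In 8-cell embryos CDC20 was lower in heavy than in light pools in both gradients, without a call (log2 -0.80, SE 0.37, adjusted p = 0.189), as was ANAPC11 (-0.68, SE 0.30, adjusted p = 0.17), and PTTG1 had a small difference (-0.13, SE 0.28, adjusted p = 0.848). In blastocysts CDC20 was higher in heavy pools in both gradients (0.48, SE 0.36, adjusted p = 0.636). FZR1 at GV was lower in heavy pools, with 9.03 and 21.1 CPM against 40.8 and 81.5 (-2.06, SE 1.03, adjusted p = 0.62, rho -0.82). The members' median rho was 0.65 at GV and 0.33 at MII, where the medians over all genes were -0.05 and -0.11, and it was 0.19 beside -0.05 at 2-cell, -0.09 beside -0.08 at 8-cell, -0.13 beside 0.01 at morula and 0.21 beside 0.17 at blastocyst. The fractions of 1 gradient share a lysate, so that these 16 points are not independent.

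Across development, the polysome pools changed with called differences in 13 of the 50 member comparisons, 4 upward and 9 downward, beside 22.5% of those of all genes (10.6% upward and 11.9% downward). From GV to MII, ANAPC11 rose (log2 1.54, SE 0.32, adjusted p = 0.00532; 1 of 10 members, beside 5.43% of genes), a call lost without either GV pool (adjusted p up to 0.0656). From MII to 2-cell, CDC20 fell from 1595 and 1182 to 650 and 476 CPM (-1.30, SE 0.31, adjusted p = 0.00995) and ANAPC11 fell from 1633 and 1707 to 855 and 816 (SE 0.32 on the log2 scale, adjusted p = 0.0492; 2 of 10, beside 8.65%). The CDC20 call was lost without MII pool A or 2-cell pool B (adjusted p up to 0.129) and with library totals (0.071), and that of ANAPC11 without any one of 21 of the 30 libraries (up to 0.211), with library totals (0.184) and with no filter (0.0524).

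From 2-cell to 8-cell, 5 of 10 members were called in polysomes, beside 47.3% of genes, and CDC20 was the one that rose. It rose 2.08-fold, to 1094 and 1250 CPM (log2 1.06, SE 0.31, adjusted p = 0.00756), and the call was lost without 2-cell pool B (adjusted p = 0.0913). FBXO43 fell from 48 and 27.1 to 1.39 and 0.895 CPM (-5.04, SE 1.14, adjusted p = 0.00105) and ANAPC1 from 45.1 and 28 to 5.33 and 6.86 (-2.58, SE 0.48, adjusted p = 0.000129), both without overlap and both called without each library. FZR1 (-1.75, SE 0.67, adjusted p = 0.0344) and ANAPC11 (-0.95, SE 0.32, adjusted p = 0.0168) also fell. The FZR1 call was lost without 2-cell pool B or 8-cell pool B (adjusted p up to 0.224) and with no filter on low counts (0.0501), and the ANAPC11 call without 2-cell pool A or 8-cell pool B (adjusted p up to 0.146).

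Gradients A and B differed widely in 8-cell pools for some members. ANAPC10 had 2 counts in A and 616 in B, CDC27 7.55 and 74.3 CPM, and FZR1 25.8 and 3.99 CPM. Without 8-cell pool B, which leaves 1 pool at that stage, 2 uncalled members turned their direction. ANAPC4 then stood at log2 1.09 from 8-cell to morula. CDC27 stood at -2.09 in the difference between its polysome and transcriptome changes from 2-cell to 8-cell.

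Later steps held 5 more calls. From 8-cell to morula (beside 37% of genes), ANAPC1 rose to 19.8 and 10.1 CPM (log2 1.29, SE 0.46, adjusted p = 0.0299) and PTTG1 fell to 376 and 215 (-1.37, SE 0.52, adjusted p = 0.0431). From morula to blastocyst (beside 14.2%), CDC20 fell from 939 and 1406 to 553 and 316 CPM (-1.43, SE 0.31, adjusted p = 0.00405), ANAPC4 rose from 6.94 and 8.14 to 16.4 and 24 (1.42, SE 0.45, adjusted p = 0.037) and FBXO43 was called lower, with 0 and 1.93 CPM in morula pools and 0 in both blastocyst pools (adjusted p = 0.0169). The FBXO43 pools overlapped, and no fold is given.

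All 5 of these calls hung on single libraries. They were lost without 8-cell pool A or morula pool A for ANAPC1 (adjusted p up to 0.297), any one of 14 of the 30 libraries for PTTG1 (up to 0.23), blastocyst pool B for CDC20 (0.0878), either morula pool or blastocyst pool B for ANAPC4 (up to 0.203), and morula pool B or either blastocyst pool for FBXO43 (up to 1). With library totals in place of TMM the calls of ANAPC1 (0.14) and ANAPC4 (0.0543) were lost, with F9 and F10 alone those of ANAPC1 (0.129) and ANAPC4 (0.424), with the replicate block that of ANAPC4 (0.0503), and with no filter on low counts that of PTTG1 (0.0627).

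Where the transcriptome and the polysomes changed by different amounts was asked with an interaction term. It was called in 6 of 50 member comparisons, 5 with the polysome change above that of the transcriptome and 1 below, beside 9.87% of those of all genes (4.88% above and 4.99% below). The calls were 1 from GV to MII, 3 from 2-cell to 8-cell and 2 from morula to blastocyst, where 10.6%, 12.2% and 12.3% of all genes were called, and the shares for the remaining steps were 1.81% from MII to 2-cell and 12.5% from 8-cell to morula.

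ANAPC1 from GV to MII went in opposite directions in the transcriptome and in polysomes. Against the transcriptome it also went down in the lighter parts, from log2 1.51 to -1.28 in F3 to F5. It went from 1.47 to -0.63 in F6 and F7 and from 0.14 to -1.51 in F1 and F2. The shifts of ANAPC1 in these parts were not tested. Its transcriptome rose from 14.3 to 34.2 CPM on average (log2 1.26), while its polysome pools went from 54.8 and 65.5 to 30.6 and 12.5 (-1.48, SE 0.46, adjusted p = 0.0594), a difference of -2.74 (SE 0.59, adjusted p = 0.00323) that was called without each library but not with F9 and F10 alone as polysomes (-2.72, adjusted p = 0.213). From morula to blastocyst the transcriptome of ANAPC1 fell and its pools did not (1.82, SE 0.59, adjusted p = 0.0447), a difference lost without any one of 22 of the 30 libraries (adjusted p up to 0.13), with the replicate block (0.0522), with no filter on low counts (0.0675) and with F9 and F10 alone (0.417).

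CDC20 rose in polysomes from 2-cell to 8-cell while its transcriptome level was, if anything, lower (log2 -0.59, SE 0.25, adjusted p = 0.0525), a difference of 1.65 (SE 0.40, adjusted p = 0.00879) lost without 2-cell pool B (adjusted p = 0.0593). PTTG1 fell 6.87-fold in the transcriptome at this step and by -0.75 (SE 0.52, adjusted p = 0.245) on the log2 scale in polysomes, a difference of 2.04 (SE 0.67, adjusted p = 0.0483) lost without any one of 23 of the 30 libraries (adjusted p up to 0.131), with F9 and F10 alone (0.0588), with the replicate block (0.06) and with DESeq2 size factors (0.0671). ANAPC11 fell in both, by -2.22 and -0.95, a difference of 1.27 (SE 0.41, adjusted p = 0.0417) lost without any one of 13 libraries (adjusted p up to 0.171), with F9 and F10 alone (0.193) and with DESeq2 size factors (0.0571). At this step the 8-cell transcriptomes are the libraries with LUM and the other raised cumulus and granulosa cell markers. Their oocyte markers summed to a median of 409 CPM, against a median of 3649 in the 8-cell fractions. At 2-cell these medians were 11257 and 16204 CPM. The part of these markers in the differences was not tested.

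FBXO5 from morula to blastocyst fell in the transcriptome (log2 -3.22, and -3.95 without blastocyst transcriptome A) and went from 30.8 and 85.3 to 29.3 and 47.9 CPM in polysomes (log2 -0.59, SE 0.44, adjusted p = 0.426). The difference of 2.63 (SE 0.58, adjusted p = 0.00535) was called without each library, and without blastocyst transcriptome A it was 3.36 (adjusted p = 0.000384). With F9 and F10 alone as polysomes it was 2.74 and not called (adjusted p = 0.0892). Without blastocyst transcriptome A, PTTG1 was called at this step as well (2.03, adjusted p = 0.00445). Against the transcriptome, FBXO5 went from log2 -2.04 at morula to 0.44 at blastocyst in F3 to F5. It went from -1.89 to -0.95 in F1 and F2 and from -2.30 to -2.06 in F6 and F7. The shifts of FBXO5 in these parts were not tested.

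**Figure D4:**
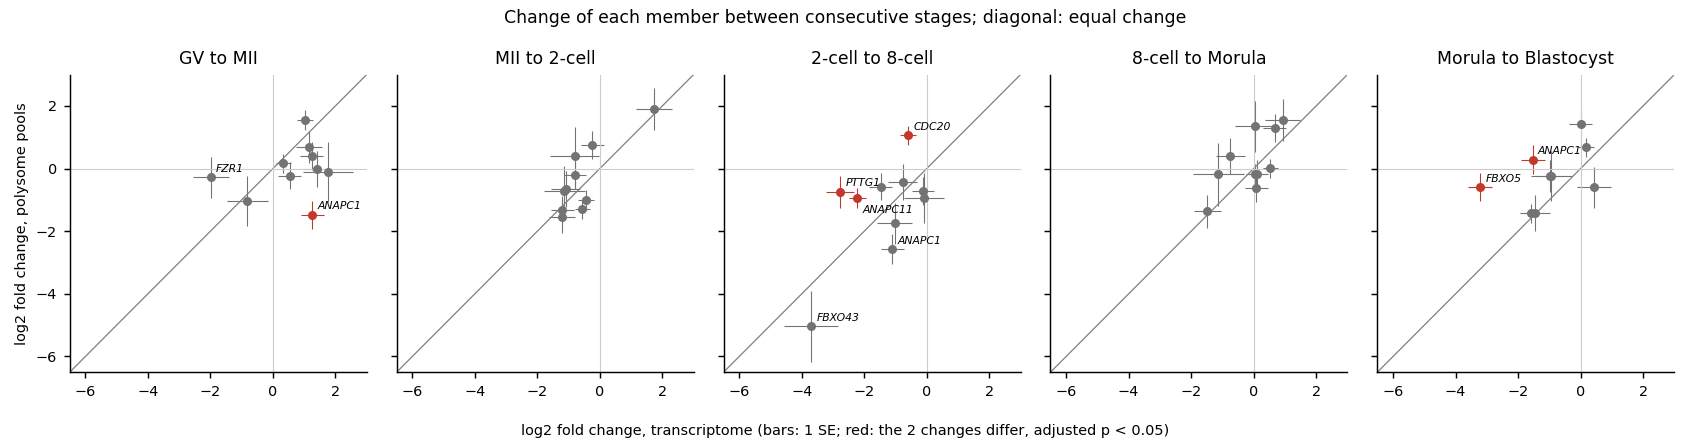
Log2 fold change of each member in polysome pools against that in transcriptomes, with 1 panel per step between consecutive stages; bars are 1 SE, the diagonal marks equal change, and FBXO43 from morula to blastocyst is left out because both blastocyst pools held 0 counts. The 6 red points are the members whose 2 changes differed, ANAPC1 below the diagonal from GV to MII and CDC20, PTTG1, ANAPC11, FBXO5 and ANAPC1 above it at later steps.

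The other genes of the pathway were described by lists. Beside their counts, 26.1% of all genes' comparisons were called higher and 23.8% lower in polysomes against transcriptome, and 12% of transcriptome steps were called up and 12.5% down. Of 9 other core subunits, polysome pools were higher in 6 and lower in 23 of 54 comparisons with the transcriptome (11.1% and 42.6%), and the 6 were those of ANAPC2 at the 6 stages. ANAPC2, the cullin that pairs with ANAPC11 in the catalytic core, went at MII from 1.92 CPM in transcriptomes to 131 in pools (log2 6.08, SE 0.59, adjusted p = 5.15e-09), and ANAPC7 fell from 42.2 to 2.36 CPM at the 8-cell stage (-4.14, SE 0.89, adjusted p = 0.00041). In the transcriptomes, 4 of 45 steps of these subunits rose and 7 fell (8.89% and 15.6%), and the largest were ANAPC15 from 2-cell to 8-cell (-2.75, SE 0.41, adjusted p = 6.87e-06) and ANAPC13 from GV to MII (-2.14, SE 0.44, adjusted p = 0.000933).

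Of 6 ubiquitin-conjugating and deubiquitinating enzymes, 10 of 36 comparisons were higher and 11 lower in polysomes (27.8% and 30.6%, near the shares of all genes). UBE2S, which lengthens the ubiquitin chains, was at 86.2 CPM in 8-cell transcriptomes and 1285 in pools (log2 3.90, SE 0.30, adjusted p = 3.00e-10), while USP44, a deubiquitinase of the spindle checkpoint, was at 15.9 and 0.624 CPM (-4.59, SE 1.27, adjusted p = 0.00359). UBE2C, which starts the chains, rose from 256 to 1436 CPM in transcriptomes from 2-cell to 8-cell (2.49, SE 0.26, adjusted p = 3.64e-08) and USP44 fell from 217 to 15.9 (-3.77, SE 0.99, adjusted p = 0.00299). Their transcriptomes rose in 5 and fell in 3 of 30 steps (16.7% and 10%).

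Of 9 spindle checkpoint genes, 16 of 54 comparisons were higher and 26 lower in polysomes (29.6% and 48.1%), with MAD2L2 higher at MII (166 against 3242 CPM, log2 4.29, SE 0.26, adjusted p = 4.60e-12) and TTK lower at the 8-cell stage (68 against 5.07 CPM, -3.73, SE 0.60, adjusted p = 1.48e-05). Their transcriptomes rose in 6 and fell in 14 of 45 steps (13.3% and 31.1%). MAD2L1, the CDC20-binding checkpoint protein, fell from 688 to 63.2 CPM from morula to blastocyst (-3.44, SE 0.28, adjusted p = 1.06e-08), the step at which CDC20 fell too, and MAD1L1 fell from 2-cell to 8-cell (-3.34, SE 0.49, adjusted p = 4.60e-06).

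Of 9 substrates, 15 of 54 comparisons were higher and 24 lower in polysomes (27.8% and 44.4%), and 7 of 45 transcriptome steps rose while 16 fell (15.6% and 35.6%). PLK1, a mitotic kinase, was at 28.7 CPM in MII transcriptomes and 2207 in pools (log2 6.26, SE 0.49, adjusted p = 1.57e-10), and GMNN, the licensing inhibitor geminin, at 680 and 37 CPM (-4.20, SE 0.30, adjusted p = 3.27e-11). AURKA fell from 6062 to 563 CPM (-3.43, SE 0.38, adjusted p = 7.90e-08) and PLK1 from 117 to 21 (-2.47, SE 0.40, adjusted p = 2.04e-05) in transcriptomes from 2-cell to 8-cell.

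The 9 separase and cohesin genes had the most lower comparisons of the 5 lists, with 9 of 54 comparisons higher and 32 lower in polysomes (16.7% and 59.3%) and medians between -2.09 and -3.52 on the log2 scale at the 6 stages, beside medians of all genes between -0.26 and 0.18. SMC1B, a meiotic cohesin, was at 8.16 CPM in morula transcriptomes and 0.0575 in pools (adjusted p = 9.96e-06), and REC8, the meiotic kleisin, at 0.382 and 0 CPM (adjusted p = 0.0274), levels too low for a fold. Their transcriptomes rose in 6 and fell in 8 of 45 steps (13.3% and 17.8%), with SMC1B (log2 -3.33, SE 0.63, adjusted p = 0.000736) and STAG3 (-2.84, SE 0.83, adjusted p = 0.0203) falling from 8-cell to morula. STAG3 went from 2.37 to 0.332 CPM. In morula transcriptomes 3 counts are between 0.289 and 0.34 CPM, so its fold rests on few counts.

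Over the 18 transcriptomes, the genes whose log2(CPM + 1) followed CDC20 most closely among 14612 genes were KIF4A (Pearson's r 0.95), CCNB1IP1 (0.95) and PARPBP (0.95). Those closest to FBXO43 were USP44 (0.99), TUBE1 (0.99) and TRIM59 (0.99), which like FBXO43 had their highest means at MII and lost most of their level by the 8-cell stage. The 18 points share 6 stages and 1 scaling, and stage differences alone can give such values.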

How the data were processed

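RNA was sequenced from 120 gradient fractions and 18 transcriptomes with Smart-seq libraries. The authors quantified reads with Salmon and deposited 1 table of expected counts per gene symbol, not normalized; the labels name the build UMD3.1, and no coordinates are given here. Of the deposited values, 11.7% were not whole and all were rounded. Computation used R 4.3.3, edgeR 4.0.16, DESeq2 1.42.0, Python 3.11.15, numpy 2.4.6, pandas 2.3.3 and scipy 1.17.1.

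Counts of F8 to F10 were summed per gradient. After filterByExpr and TMM scaling, 1 edgeR quasi-likelihood model with 12 groups was fitted to 30 libraries (18 transcriptomes, 12 polysome pools) without a block. Heavy (F8 to F10) and light (F3 to F5) pools were fitted with the gradient as a block, since the labels give both pools of a gradient the same stage and letter (median r of their deviations 0.0933). P-values were adjusted over all genes by the Benjamini-Hochberg method. The fits were tested on simulated data. The study speaks of biological replicates for the fractions and describes the transcriptomes as pools from the batches used for the gradients. Whether the transcriptomes of a stage came from separate batches is not stated. The p-values measure the spread between such pools. No 2 of 78 replicate pairs were identical.

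Members and lists were chosen with earlier results of these data known. All 10 members are named, with the 2 genes of each list with the largest called log2 change in transcriptome steps and in polysomes against transcriptome, and the 3 genes most correlated with CDC20 and with FBXO43. Alternatives were other tools, scalings, filters, fraction ranges, the block and single libraries left out. Other parts of the gradient were set against the transcriptome after seeing the data.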

Additional observations from a re-analysis of the deposited data

Results flagged for a closer look

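In 6 cases a member's change between consecutive stages differed between polysomes and transcriptome by the interaction term of edgeR's quasi-likelihood model with Benjamini-Hochberg adjustment. From GV to MII, the log2 change of ANAPC1 in polysomes minus that in the transcriptome was -2.74 (SE 0.59, adjusted p = 0.00323). From 2-cell to 8-cell the difference was 1.65 for CDC20 (SE 0.40, adjusted p = 0.00879), 2.04 for PTTG1 (SE 0.67, adjusted p = 0.0483) and 1.27 for ANAPC11 (SE 0.41, adjusted p = 0.0417). At that step, CDC20, PTTG1 and ANAPC11 shifted in the same direction against the transcriptome in F1 and F2 and in F3 to F5. In these parts ANAPC1 from GV to MII and FBXO5 from morula to blastocyst also shifted in the direction seen in polysomes. From morula to blastocyst the difference was 2.63 for FBXO5 (SE 0.58, adjusted p = 0.00535) and 1.82 for ANAPC1 (SE 0.59, adjusted p = 0.0447). Those of ANAPC1 from GV to MII and of FBXO5 were called without each of the 30 libraries in turn, and both were lost with F9 and F10 alone as polysomes (adjusted p = 0.213 and 0.0892).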

How the results depend on the processing

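With the replicate block (the letters A and B as a term), 16, 12, 4 and 46 member comparisons were called for transcriptome steps, polysome steps, the difference between them and polysomes against transcriptome, in place of 17, 13, 6 and 46. Heavy against light fractions without the block kept a count of 2. Counts of all genes were not set beside these, so the changes cannot be ascribed to the members. The letters did not pair polysome pools with transcriptomes (r of deviations between -0.07 and 0.04). Calls of members moved by more than 1.5 times with the transcriptomes alone (33 in place of 17, and 34046 in place of 17940 over all genes). They did so for the difference between steps with F9 and F10 only (1, that of CDC20, in place of 6). The count of all genes with F9 and F10 only is not given here. Under other settings, that difference was called for 10894 of all genes' comparisons with the likelihood ratio test and 11324 with DESeq2, in place of 7214. Heavy against light fractions moved as well (5 with the likelihood ratio test, 10 with DESeq2 and 12 with the Spearman trend in place of 2). Over all genes these were 8271, 10518 and 11760 in place of 1775. With single libraries left out, member counts ranged from 12 to 24, 8 to 21, 3 to 13, 43 to 49 and 0 to 3 over the 5 families, and counts of all genes from 15746 to 21996, 14253 to 20030, 5910 to 14138, 41603 to 48857 and 611 to 3725. Directions reversed without 8-cell pool B for ANAPC4 in polysomes from 8-cell to morula (1.09; -0.83 without pool A) and CDC27 in the difference from 2-cell to 8-cell (-2.09; 1.21 without pool A). With other gradient parts, chosen after seeing the data, directions of some comparisons called in F8 to F10 reversed, without a call. They were ANAPC1 at 8-cell (1.18, F3 to F5), FBXO43 at 8-cell (1.52) and blastocyst (1.62, both F1 and F2) and FZR1 at blastocyst (-0.53, F3 to F5). The cause was not tested. With library totals in place of TMM, calls from GV to MII in the transcriptome were 17.4% upward in place of 41.4%, and 26.3% in place of 56.7% in polysomes. Members at a few counts were limited by depth.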
